A study of Homo sapiens with 16 samples.

Results

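The genes described here are the core of the human microRNA machinery: the 4 Argonautes AGO1, AGO2, AGO3 and AGO4, the nuclease DROSHA, the export receptor XPO5, the nuclease DICER1 and the 3 GW182 proteins TNRC6A, TNRC6B and TNRC6C. The rule lists them by gene name and uses no measured value, and all 10 were found, with 1 row each, in the 4 tables, which had 19344 genes in common. The tables came from 16 poly(A) RNA-seq libraries of U2OS, an osteosarcoma cell line with wild-type p53, in 4 groups of 4. Cells of every group were transfected with a siRNA, either a control siRNA (siControl) or one against RFX7 (siRFX7), and were then given 10 µM Nutlin-3a or its solvent DMSO for 24 h. RFX7 is a transcription factor of the RFX family, and Nutlin-3a keeps MDM2 off p53, which stabilises p53. The groups were thus siControl with DMSO, siControl with Nutlin-3a, siRFX7 with DMSO and siRFX7 with Nutlin-3a, all in 1 cell line. The labels do not say whether replicates were separate cultures, so p-values measure the spread between these libraries, which may be technical.

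In the canonical pathway, DROSHA cuts a hairpin out of the primary microRNA transcript in the nucleus, XPO5 carries the hairpin to the cytoplasm, and DICER1 trims it to a short duplex. An Argonaute protein keeps 1 strand of that duplex and pairs its seed with sites that lie mostly in the 3′ UTRs of messenger RNAs. TNRC6 proteins bind Argonaute and bring in deadenylases, which leads to loss of the poly(A) tail, decapping and decay. The same Argonautes take up transfected siRNAs, and AGO2 is the family member known for cutting a fully paired target.

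Each table compared 2 groups of 4 libraries and gave per gene the base mean (normalised reads averaged over its 8 libraries), the log2 fold change, its standard error (SE) and an adjusted p. No library had a value of its own, so levels below are group means implied by the base mean and the fold change of a table. The base means of a table added up to between 27946376 and 35311111 normalised counts. As a check of the labels, the authors' deposited tables of siRFX7 over siControl gave RFX7 a log2 fold change of -2.42 ± 0.07 (SE) with DMSO and -2.37 ± 0.07 with Nutlin-3a. VIM, COL1A1, SPARC and FN1, mesenchymal and bone markers, had base means of 19600 to 84600 in the authors' deposited table for Nutlin-3a in siControl. The other listed markers of these cells were lower there, with CDH2 at 5910, RUNX2 at 432, ALPL at 371 and COL1A2 at 13.2. Of the epithelial, blood and endothelial markers, EPCAM (191), CD34 (142) and CDH1 (121) had the highest base means in that authors' deposited table, and KRT19, CLDN7 and CD3E were not listed in it.

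Promoters are shown for the members called higher with siRFX7 under both treatments and for AGO4, and 3′ UTR sites for the heptamer described with them. Promoter windows of 300 bases, 250 before and 50 after a start site, came from RefSeq on GRCh38.p14 and were at hand for 9 of the 10 members, in 16 windows, since DICER1 and TNRC6C have several starts. On both strands, the hexamer GTTGCC, which forms one side of the X-box that RFX proteins bind, was found in 5 of 16 windows, 1 each of AGO1, DICER1, TNRC6A, TNRC6C and XPO5, against 12.2% of all promoter windows. The p53 decamer consensus was in 1 of 16 windows, a start of DICER1 well inside the gene, against 6.63% of all windows. The hexamer TTTGAA, the CHR element of cell cycle genes, was in 3 of 16 windows, of DICER1 and TNRC6C, against 15.2%. Windows of 1 gene can overlap, and these matches describe letters, not binding. Of the members with GTTGCC, XPO5 was not called with siRFX7, and TNRC6A was called higher under Nutlin-3a only. The other windows of DICER1 and TNRC6C have no GTTGCC. Capitals below mark GTTGCC or its reverse complement in the windows of AGO1, of DICER1 and of an inner start of TNRC6C, which were the members higher with siRFX7 under both treatments, and the window of AGO4, the member that rose most with Nutlin-3a, has none of these 3 motifs.
AGO1 chr1:35882959-35883258 (+): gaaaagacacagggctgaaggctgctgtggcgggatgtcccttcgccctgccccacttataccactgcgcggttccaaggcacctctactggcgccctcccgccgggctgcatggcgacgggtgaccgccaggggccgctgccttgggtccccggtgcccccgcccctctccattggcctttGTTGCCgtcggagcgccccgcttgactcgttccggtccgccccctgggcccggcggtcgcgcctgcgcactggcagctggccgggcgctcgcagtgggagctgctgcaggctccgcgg
DICER1 chr14:95157480-95157779 (-): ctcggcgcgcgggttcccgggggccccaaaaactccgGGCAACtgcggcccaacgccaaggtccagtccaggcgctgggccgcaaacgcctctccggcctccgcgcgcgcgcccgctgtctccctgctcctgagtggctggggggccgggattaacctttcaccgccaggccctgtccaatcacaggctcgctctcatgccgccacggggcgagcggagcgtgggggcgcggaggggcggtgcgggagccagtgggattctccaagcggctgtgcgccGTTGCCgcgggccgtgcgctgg
TNRC6C chr17:78003987-78004286 (+): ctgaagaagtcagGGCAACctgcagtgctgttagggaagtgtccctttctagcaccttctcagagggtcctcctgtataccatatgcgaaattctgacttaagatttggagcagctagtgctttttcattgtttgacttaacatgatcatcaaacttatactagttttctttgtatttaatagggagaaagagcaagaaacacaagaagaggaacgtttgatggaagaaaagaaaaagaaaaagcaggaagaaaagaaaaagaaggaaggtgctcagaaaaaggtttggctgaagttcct
AGO4 chr1:35807766-35808065 (+): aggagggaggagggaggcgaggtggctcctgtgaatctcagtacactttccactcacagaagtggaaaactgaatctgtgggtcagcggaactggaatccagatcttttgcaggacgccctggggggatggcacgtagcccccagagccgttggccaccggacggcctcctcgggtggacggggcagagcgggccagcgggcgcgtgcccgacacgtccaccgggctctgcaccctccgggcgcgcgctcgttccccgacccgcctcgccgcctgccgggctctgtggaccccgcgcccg

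Sites in 3′ UTRs were searched for a heptamer, GTATCTA, and a hexamer, GACGTA. An earlier scan of these same log2 fold changes had picked both, the heptamer as frequent in genes lower with siRFX7 and the hexamer in genes higher with it, so a match is not independent of these data. The heptamer was in the longest GENCODE 29 3′ UTR of AGO2, AGO3, TNRC6A and TNRC6B, 4 of 10 members, against 8.06% of 11169 genes at a base mean of 100 or more. These members have 3′ UTRs of 2420 to 16755 bases, and the median of the 11169 genes was 1459, so the shares are not of like lengths. The hexamer was in AGO2 only, against 4.75% of genes. RFX7 itself carries the heptamer once. The sites are shown with 10 bases on either side and the heptamer in capitals, apart from those of AGO2, which are not shown.
RFX7, 3′ UTR base 28: gtagcacactGTATCTAaagacatatg
TNRC6A, 3′ UTR base 191: atgtgaaaagGTATCTActctatttac
TNRC6B, 3′ UTR base 5645: ttgtttttaaGTATCTAtaagatcttt
AGO3, 3′ UTR base 5921: agaatctaatGTATCTAtgttagggtc
AGO3, 3′ UTR base 6197: atgcagtaaaGTATCTAggtaaatgct

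Levels within a family were compared per kilobase of merged exon length in GENCODE 29, which counts every annotated 3′ UTR and so understates genes that use short ones. In siControl cells with DMSO, the implied level per kilobase was 599 for AGO2, 476 for AGO1, 80.4 for AGO3 and 39.5 for AGO4. AGO2 therefore made up 50.1% of the Argonaute level per kilobase, AGO1 39.8%, AGO3 6.74% and AGO4 3.31%. The TNRC6 family was led by TNRC6A at 350 per kilobase (62.0%), before TNRC6B at 177 (31.3%) and TNRC6C at 37.7 (6.68%). Among the processing factors, XPO5 stood at 661 per kilobase, DROSHA at 531 and DICER1 at 302. The tables give no error for a level, so the order of close neighbours such as XPO5 and AGO2 was not tested.

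With Nutlin-3a, the least abundant Argonaute and the least abundant TNRC6 gene rose, and the enzymes that make microRNAs fell slightly, in both siRNA backgrounds. AGO4 gained 48.1% in siControl and 54.8% in siRFX7, and TNRC6C gained 23.5% and 25.3%. DROSHA, XPO5, DICER1 and AGO2 fell in both tables by between 11.4% and 19.2%. AGO1, AGO3 and TNRC6B passed the threshold in neither table. In bulk RNA, fewer cells of a kind and less RNA per cell cannot be told apart. In siControl, 2 of 10 members were called higher and 5 lower at an adjusted p under 0.05, where 18.3% of 23353 genes were called higher and 19.6% lower. In siRFX7, 2 members were higher and 4 lower, where 18.7% of 21382 genes were higher and 20.3% lower. Every member had a base mean of at least 100, and of such genes 56.3% were called in each of the Nutlin-3a tables, so the share of members called, 70.0% and 60.0%, stood beside a background that high. The median log2 fold change of the members was -0.11 in siControl and -0.09 in siRFX7. Beside it, the median was 0.01 over all genes and -0.03 over genes at a base mean of at least 100, in both tables.

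**Figure D1:**
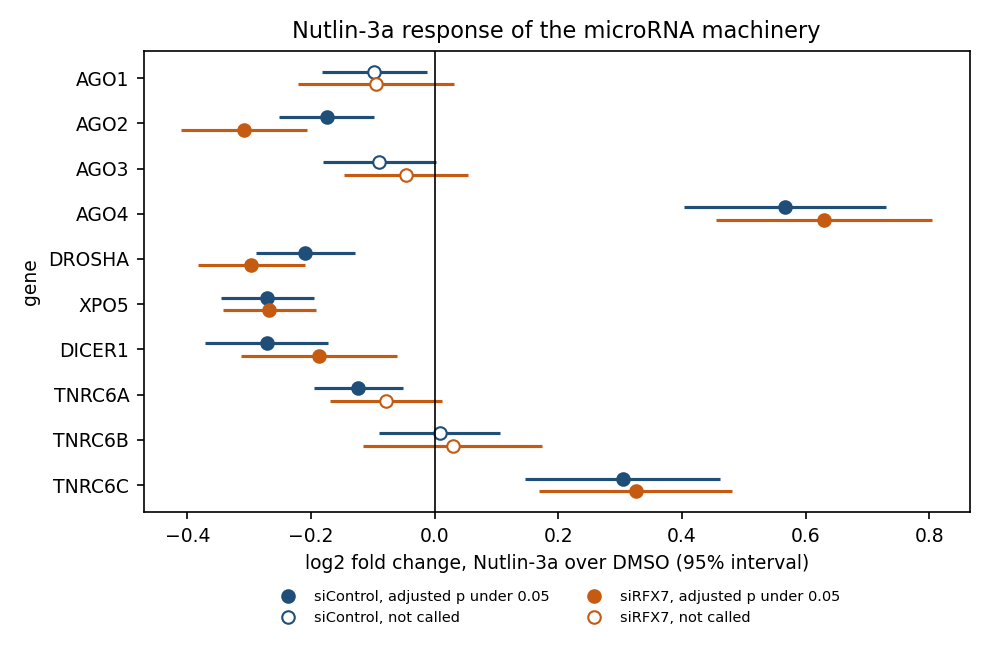
Log2 fold change of each member with Nutlin-3a over DMSO in siControl and siRFX7 cells, with 95% intervals from the deposited SE; filled points passed an adjusted p of 0.05 and open points did not. AGO4 and TNRC6C lie to the right of 0 in both backgrounds, at 0.57 and 0.30 in siControl, while DROSHA, XPO5, DICER1 and AGO2 lie to the left.

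AGO4 is an Argonaute that is not known for cutting its targets. Its implied mean went from 287 normalised counts with DMSO to 426 with Nutlin-3a in siControl, and from 231 to 357 in siRFX7. The authors' deposited tables gave it log2 fold changes of 0.57 ± 0.08 (SE, DESeq2 adjusted p 9.72e-11) for siControl and 0.63 ± 0.09 (adjusted p 1.71e-11) for siRFX7. This placed AGO4 above 94.6% and 95.8% of genes at a base mean of 100 or more. Its share of the Argonaute level per kilobase went from 3.31% to 5.28% in siControl and from 3.01% to 5.22% in siRFX7.

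AGO4, AGO1 and AGO3 lie one after the other on the plus strand of chromosome 1 (AGO4 35808172 to 35857890, AGO1 35869808 to 35930528, AGO3 35930718 to 36072500, GENCODE 29 on GRCh38). The gaps are 11.9 kb and 0.189 kb. These neighbours did not share the call of AGO4. For AGO1 the authors' deposited tables had -0.10 ± 0.04 (SE) for siControl and -0.09 ± 0.06 for siRFX7 (adjusted p 0.0613 and 0.258). AGO3 was at -0.09 ± 0.05 and -0.05 ± 0.05, by the authors' deposited tables (adjusted p 0.126 and 0.531). For AGO3 the 95% intervals reached from -0.18 to 0.05 over both tables, so a fall of 11.8% was still within them, and a rise like that of AGO4 was not.

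AGO2, on chromosome 8 (140520156 to 140635619, minus strand), fell. Its implied mean went from 9479 to 8398 normalised counts in siControl and from 8238 to 6655 in siRFX7. The authors' deposited tables gave -0.17 ± 0.04 (SE, DESeq2 adjusted p 4.23e-05) and -0.31 ± 0.05 (adjusted p 2.21e-08). The summed Argonaute level per kilobase went from 1194 to 1109 in siControl and from 1055 to 943 in siRFX7, lower by 7.12% and 10.6% (values without an error, since the tables do not give how genes vary together). Per kilobase, AGO4 went from 39.5 to 58.6 in siControl while AGO2 went from 599 to 530.

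The 3 factors of processing and export all fell in both tables. XPO5, the receptor for hairpin export, went from 5631 to 4669 normalised counts in siControl and from 4168 to 3464 in siRFX7. Its log2 fold change was -0.27 ± 0.04 (SE) in both of the authors' deposited tables (adjusted p 3.16e-11 and 4.09e-11). DROSHA, the nuclear nuclease, went from 4128 to 3570 and from 3324 to 2707, at -0.21 ± 0.04 and -0.30 ± 0.04 in the authors' deposited tables (adjusted p 1.84e-06 and 1.39e-10). DICER1, the cytoplasmic nuclease, went from 3709 to 3072 and from 3569 to 3135, at -0.27 ± 0.05 and -0.19 ± 0.06 in the authors' deposited tables (adjusted p 5.89e-07 and 0.0110). These falls were modest in size: XPO5 and DICER1 in siControl were larger in size than 66.5% and 66.7% of genes at a base mean of 100 or more. XPO5 shares 4.08% of its merged exons with POLR1C on the opposite strand. POLR1C was at -0.09 and -0.25 in the authors' deposited tables with Nutlin-3a (adjusted p 0.171 and 0.000126). For siRFX7 over siControl, the authors' deposited tables gave POLR1C 0.34 under DMSO and 0.18 under Nutlin-3a (DESeq2 adjusted p 8.23e-09 and 0.00768). The part of POLR1C in the values of XPO5 was not tested.

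Of the 3 GW182 genes, TNRC6C rose in both tables, TNRC6A fell in siControl and TNRC6B was not called. TNRC6C went from 419 to 518 normalised counts in siControl and from 506 to 633 in siRFX7. The authors' deposited tables gave it 0.30 ± 0.08 (SE, DESeq2 adjusted p 0.000662) and 0.33 ± 0.08 (adjusted p 0.000191). TNRC6A, the most abundant of the family, went from 4526 to 4155 and from 3583 to 3394. It was at -0.12 ± 0.04 and -0.08 ± 0.05 in the authors' deposited tables, and passed in siControl only (adjusted p 0.00304 and 0.184), while the difference of its responses was 0.05 ± 0.06 (95% interval -0.07 to 0.16). TNRC6B was at 0.01 ± 0.05 and 0.03 ± 0.07 in the authors' deposited tables (adjusted p 0.929 and 0.809), with 95% intervals that span -0.12 to 0.17. The summed level per kilobase of the family, 565 before and 546 after Nutlin-3a in siControl and 461 and 460.5 in siRFX7, changed by -3.33% and -0.09%.

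With siRFX7, TNRC6C, DICER1 and AGO1 were higher than with siControl under both treatments, and no member was called lower under either. TNRC6C was higher by 58.2% under DMSO and 60.6% under Nutlin-3a, DICER1 by 26.5% and 34.2%, and AGO1 by 22.6% and 22.9%. Under DMSO, 4 of 10 members were called higher and 0 lower, where 19.9% of 19511 genes were called higher and 17.5% lower. Under Nutlin-3a, 4 were again higher and 0 lower, where 17.2% of 20335 genes were higher and 15.4% lower. Of the genes at a base mean of 100 or more, 27.1% were called higher under DMSO and 24.6% under Nutlin-3a. The counts were the same at an unadjusted p under 0.05, and the lowest log2 fold change of any member was that of XPO5 under DMSO, at -0.04 ± 0.04 (SE) in the authors' deposited table. Epithelial markers and mesenchymal and bone markers moved with the knockdown, and no blood or endothelial marker was called. Among epithelial ones, CDH1 was at 0.85 ± 0.13 and 1.104 ± 0.12 and EPCAM at 0.54 ± 0.11 and 0.41 ± 0.11 with DMSO and with Nutlin-3a, by the authors' deposited tables. Their base means of 150 to 214 there stayed far below those of VIM, and ESRP1 was at no more than 6.95. Of 8 mesenchymal and bone markers, 4 were higher and 0 lower under DMSO (1 lower at an unadjusted p under 0.05), and 2 were higher and 2 lower under Nutlin-3a. COL1A1 was at 0.38 ± 0.04 and 0.27 ± 0.05 and SPARC at 0.22 ± 0.03 and 0.19 ± 0.04 in these comparisons, and VIM at -0.07 ± 0.035 and -0.12 ± 0.04, by the authors' deposited tables. The part of these markers in the members' values was not tested. The median of the members was 0.08 in each of the authors' deposited tables, beside values within 0.01 of 0 over all genes. Over genes at a base mean of 100 or more the median was 0.01 in each.

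**Figure D2:**
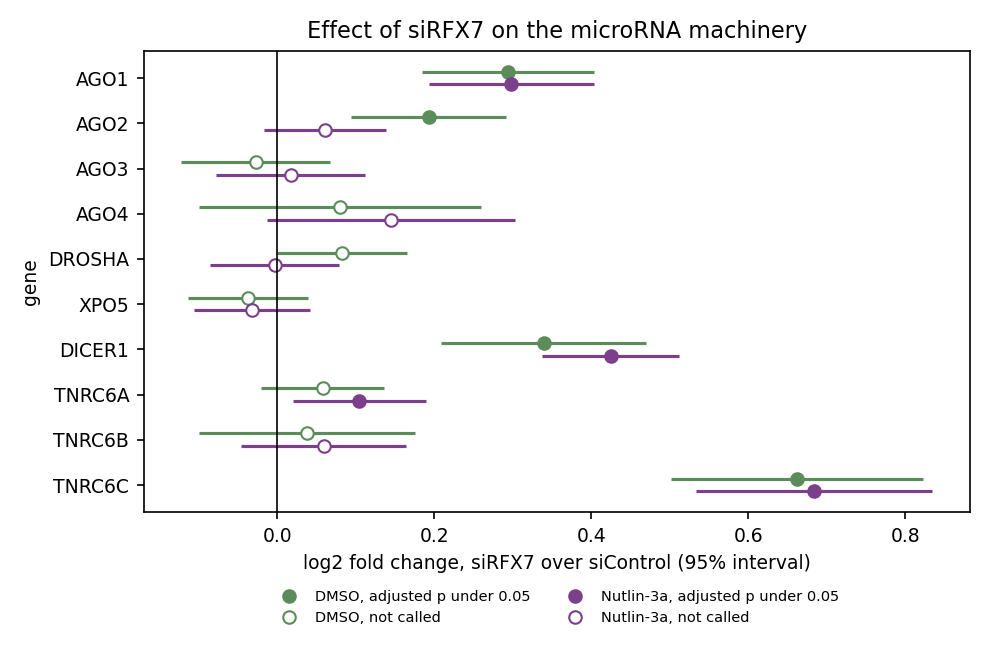
Log2 fold change of each member with siRFX7 over siControl, under DMSO and under Nutlin-3a, with 95% intervals from the deposited SE; filled points passed an adjusted p of 0.05. TNRC6C lies farthest to the right, at 0.66 and 0.68, before DICER1 and AGO1, and the members with the 3′ UTR heptamer lie between -0.03 and 0.19.

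TNRC6C (chromosome 17, 77959240 to 78108835, plus strand) had the largest difference of the 10 members in both tables. Its implied mean was 377 normalised counts in siControl and 597 in siRFX7 under DMSO, and 439 and 705 under Nutlin-3a. The authors' deposited tables gave log2 fold changes of 0.66 ± 0.08 (SE, DESeq2 adjusted p 1.46e-14) and 0.68 ± 0.08 (adjusted p 1.91e-17). These lie above 98.5% and 98.9% of genes at a base mean of 100 or more. The gene was thus higher with each of the 2 treatments. Its share of the TNRC6 level per kilobase went from 6.68% in siControl with DMSO to 12.4% in siRFX7 with Nutlin-3a. TNRC6C also rose with Nutlin-3a, in tables that share groups with these (siControl with DMSO is the reference of both a Nutlin-3a and a siRFX7 table). TNRC6C-AS1 overlaps 12.9% of its merged exons on the opposite strand. Its base mean was under 100 in every table, and the authors' deposited tables for siRFX7 gave it -0.09 ± 0.17 with DMSO and 0.29 ± 0.16 with Nutlin-3a (adjusted p 0.743 and 0.154). For Nutlin-3a over DMSO, the authors' deposited tables gave this antisense gene 0.27 ± 0.16 with siControl and 0.65 ± 0.17 with siRFX7 (adjusted p 0.182 and 0.000562). Whether the counting used the strand was not stated, and its part in the TNRC6C values was not tested.

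DICER1 (chromosome 14, 95086228 to 95158010, minus strand) was lower with Nutlin-3a and higher with siRFX7, in tables that share groups. The groups siControl with Nutlin-3a and siRFX7 with DMSO each serve as reference in a table and as compared group in another. Its implied mean was 3334 normalised counts in siControl and 4218 in siRFX7 under DMSO, and 2602 and 3492 under Nutlin-3a. Log2 fold changes from the authors' deposited tables were 0.34 ± 0.07 (SE, DESeq2 adjusted p 2.83e-06) and 0.42 ± 0.04 (adjusted p 6.57e-20). They lie above 91.1% and 95.4% of genes at a base mean of 100 or more. DROSHA and XPO5, which fell with it under Nutlin-3a, were not called with siRFX7: DROSHA was at 0.08 ± 0.04 and -0.003 ± 0.04, and XPO5 at -0.04 ± 0.04 and -0.03 ± 0.04, by the authors' deposited tables. Their 95% intervals reached from -0.11 to 0.16, so a change as large as that of DICER1 lay outside them.

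AGO1 was at 5933 normalised counts in siControl and 7274 in siRFX7 under DMSO, and at 5226 and 6425 under Nutlin-3a. The authors' deposited tables gave 0.29 ± 0.06 (SE, DESeq2 adjusted p 1.23e-06) and 0.30 ± 0.05 (adjusted p 3.11e-07). Its neighbours on chromosome 1 were not called. AGO3 was at -0.03 ± 0.05 and 0.02 ± 0.05 and AGO4 at 0.08 ± 0.09 and 0.14 ± 0.08 in the authors' deposited tables. The wide 95% interval of AGO4, up to 0.30 under Nutlin-3a, still included a rise of the size seen for AGO1. For AGO2 the authors' deposited tables had 0.19 ± 0.05 with DMSO (adjusted p 0.000623) and 0.06 ± 0.04 with Nutlin-3a (adjusted p 0.255), and the gap between them was not tested apart from the test given below. The summed Argonaute level per kilobase went from 1073 to 1247 under DMSO and from 939 to 1051 under Nutlin-3a, higher by 16.2% and 11.95%.

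**Figure D3:**
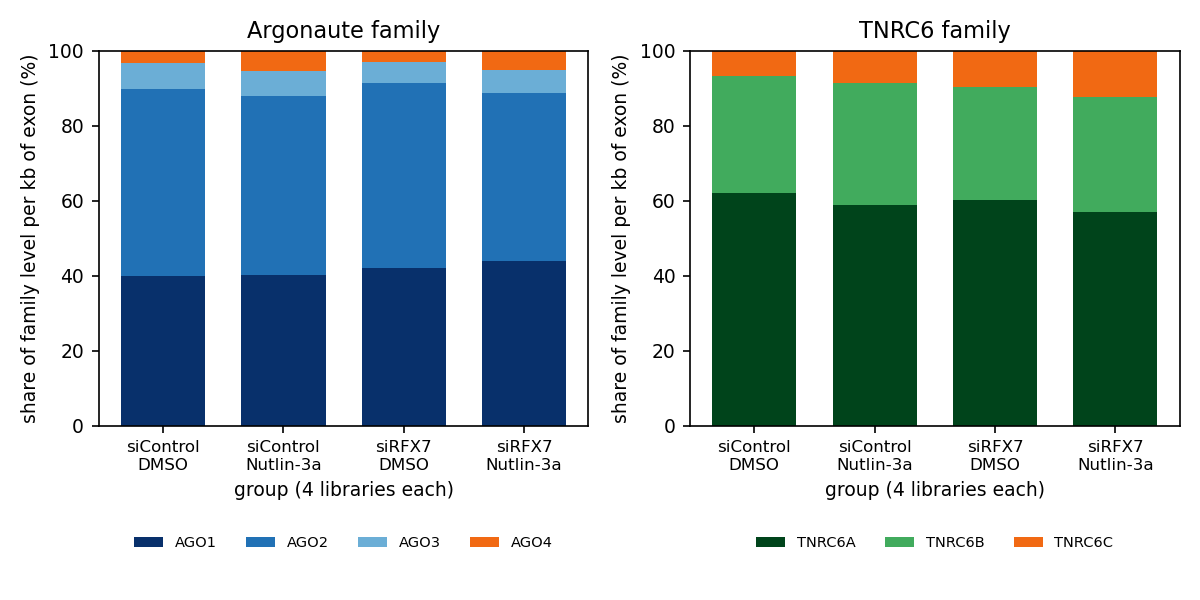
Share of each gene in the summed level per kilobase of exon of the Argonaute family (left) and the TNRC6 family (right), in percent, for the 4 groups of 4 libraries; shares need no scaling between tables, and have no error bar because the tables give none for a level. AGO4 went from 3.31% to 5.28% with Nutlin-3a in siControl, and TNRC6C from 6.68% to 12.4% between siControl with DMSO and siRFX7 with Nutlin-3a.

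The members that carry the heptamer shown above were not called lower with siRFX7. By the authors' deposited tables, TNRC6A was at 0.06 ± 0.04 (SE) with DMSO and 0.10 ± 0.04 with Nutlin-3a, and TNRC6B at 0.04 ± 0.07 and 0.06 ± 0.05. TNRC6A passed under Nutlin-3a with an adjusted p of 0.0490, just under the threshold, and TNRC6B in neither table. AGO3, with 2 sites, had 95% intervals from -0.12 to 0.11 over both tables. RFX7, with 1 site, fell by 81.4% under DMSO and fell by 80.6% under Nutlin-3a. AGO2, which carries the heptamer and, alone among the members, the hexamer, was higher under DMSO (0.19 ± 0.05 in the authors' deposited table) and not called under Nutlin-3a (0.06 ± 0.04). TNRC6C, DICER1 and AGO1, which were higher under both treatments, carry neither. The part of these sites in any of the values was not tested.

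Dependence of the Nutlin-3a responses on RFX7 was tested as the gap between a member's log2 fold changes, siRFX7 minus siControl, from tables that share no library. No member differed after Benjamini-Hochberg adjustment over 21339 genes (threshold 0.05, normal test on both sides), where 0.173% of genes had a higher and 0.764% a lower response in siRFX7. The differences of the 10 members lay between -0.13 and 0.09, and their median was 0.02. AGO2 had the largest, -0.13 ± 0.06 (SE), with an unadjusted p of 0.0402 and an adjusted p of 0.737. It was the only member with an unadjusted p under 0.05, beside 6.32% of all genes, whatever their base mean. DROSHA was next at -0.09 ± 0.06 (adjusted p 0.985). DICER1 was at 0.08 ± 0.08, AGO4 at 0.06 ± 0.12 and TNRC6C at 0.02 ± 0.11. The 95% intervals of all 10 lay within -0.26 to 0.30, so larger differences were outside them.

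**Figure D4:**
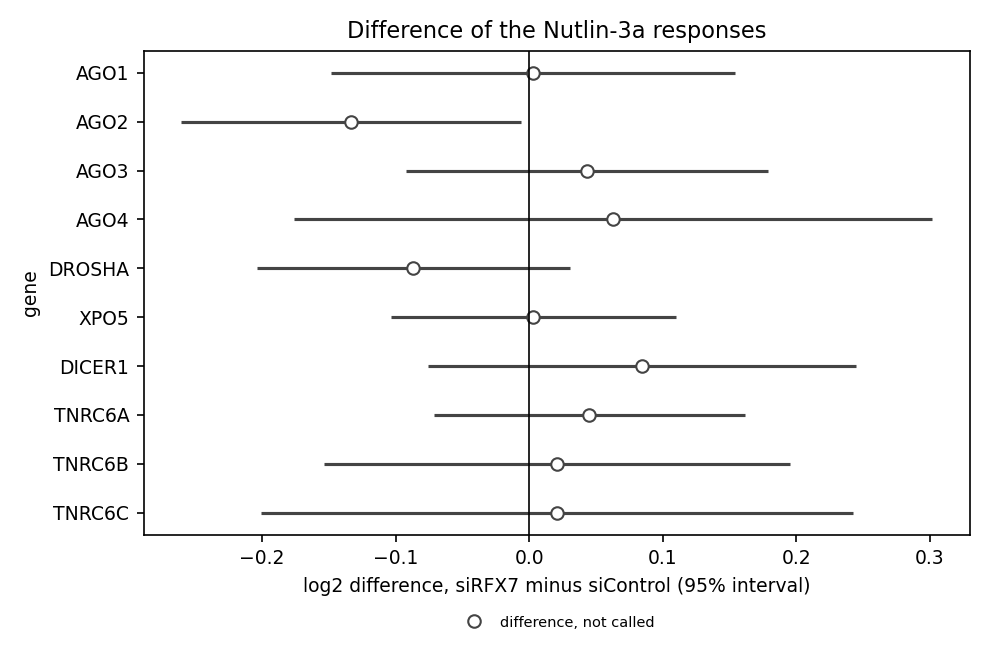
Difference of the Nutlin-3a log2 fold changes of each member, siRFX7 minus siControl, with 95% intervals from the summed squared SE; open points did not pass an adjusted p of 0.05. All 10 points lie between -0.13 and 0.09, and the interval of AGO2 alone does not reach 0 before adjustment.

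A list of 62 other genes of the pathway, written from knowledge of it, put these values in context. LIN28A and TRIM71 were in no table, and the other 60 all had a base mean of at least 100. With Nutlin-3a, 3 of 60 rose and 35 fell in siControl, and 4 rose and 33 fell in siRFX7, with medians of -0.19 and -0.17. Of all genes at that level, 24.7% were higher and 31.6% lower in siControl, and 24.8% and 31.5% in siRFX7. Among the 13 partners of DROSHA, which include DGCR8 and the helicases DDX5 and DDX17, 9 fell in each table and 0 rose, with medians of -0.28 and -0.39 (0 rose at an unadjusted p under 0.05 as well). KHSRP, a protein that binds precursor loops, was at -0.47 ± 0.04 (SE) and -0.51 ± 0.05, and SRRT, which links capped RNA to processing, was at -0.54 ± 0.04 in siRFX7, in the authors' deposited tables. Of 11 genes of export, dicing and Argonaute loading, 9 and 10 fell and 0 rose (0 and 1 at an unadjusted p under 0.05). The chaperone HSP90AA1 was at -0.51 ± 0.05 with Nutlin-3a in siControl, by the authors' deposited table. Its co-chaperone FKBP4 was at -0.496 ± 0.03 there and at -0.52 ± 0.04 in the authors' deposited table for siRFX7. Like DROSHA, XPO5 and DICER1, these lists held no gene that rose. HSP90AA1 and several others of these genes serve many further functions.

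**Figure D5:**
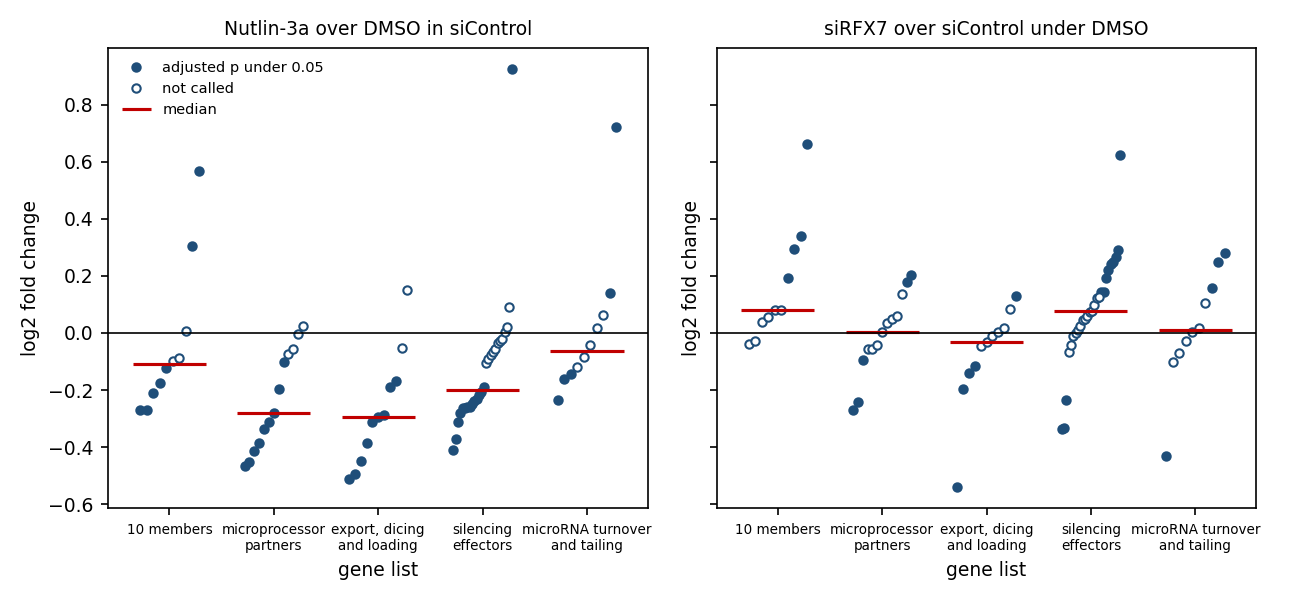
Log2 fold changes of the 10 members and of 4 lists of other pathway genes with Nutlin-3a in siControl (left) and with siRFX7 under DMSO (right); each point is a gene, sorted within its list, filled where the adjusted p was under 0.05, and the line is the list's median. With Nutlin-3a the medians of the microprocessor partners and of the export, dicing and loading genes are -0.28 and -0.295, and with siRFX7 they are 0.00 and -0.03.

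Downstream of Argonaute, most called silencing effectors fell, and the turnover genes went both ways. Of 26 silencing effectors (poly(A)-binding protein, the CCR4-NOT and PAN deadenylases, decapping factors and their partners), 1 rose and 14 fell with Nutlin-3a in siControl, and 2 rose and 13 fell in siRFX7, beside the 24.7% higher and 31.6% lower in siControl, and 24.8% and 31.5% in siRFX7, of all genes at a base mean of 100 or more. The authors' deposited tables had the decapping factor DCP1B up by 0.93 ± 0.05 (SE) and 1.01 ± 0.05, larger values than that of any member. Among 10 genes of microRNA turnover and tailing, 2 rose and 3 fell in siControl, and 2 rose and 1 fell in siRFX7. ZSWIM8, the ubiquitin ligase adaptor of target-directed microRNA decay, rose by 0.72 ± 0.06 and 0.55 ± 0.06, and the uridylyltransferase TUT7 by 0.14 ± 0.05 and 0.19 ± 0.06, by the authors' deposited tables.

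With siRFX7 the other pathway genes went both ways. Under DMSO 15 of 60 were called higher and 11 lower, and under Nutlin-3a 19 higher and 10 lower, with medians of 0.02 and 0.04. Of all genes at that base mean, 27.1% were higher and 22.6% lower under DMSO, and 24.6% and 20.6% under Nutlin-3a, so the count under DMSO was near the background. Of the 26 silencing effectors, 9 were higher and 3 lower under DMSO, and 13 were higher and 2 lower under Nutlin-3a. CNOT7, a catalytic deadenylase of the CCR4-NOT complex that TNRC6 proteins recruit, was higher by 0.62 ± 0.04 (SE) and 0.57 ± 0.04, as the authors' deposited tables give it. CNOT9, the subunit that TNRC6 proteins contact, was higher by 0.29 ± 0.04 and 0.29 ± 0.05 by those authors' deposited tables. The authors' deposited tables also had ZSWIM8 at 0.28 ± 0.07 under DMSO and DCP1A at 0.36 ± 0.05 under Nutlin-3a. Under the other treatment, implied means in siControl and siRFX7 were 2111 and 2279 normalised counts for ZSWIM8, and 1915 and 2306 for DCP1A. TSN, a subunit of the C3PO nuclease, was lowest at -0.54 ± 0.04 and -0.46 ± 0.05, before PAN2 at -0.34 ± 0.06 and -0.36 ± 0.07 and the terminal uridylyltransferase TUT1 at -0.43 ± 0.08 and -0.34 ± 0.09, in the authors' deposited tables. The Nutlin-3a response differed for 0 of the 60 after adjustment, beside 1.48% of all genes at that base mean. At an unadjusted p under 0.05 it differed for 7 of the 60, beside 6.32% of all 21339 genes tested. That share also covers genes at lower base means, so the sets are unlike.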

How the data were processed

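Results rest on 4 DESeq2 comparisons made by the authors, each of 2 groups of 4 libraries. Per the submitters' processing notes, reads were handled with Trimmomatic 0.39 and cutadapt 2.10, counted with featureCounts 1.6.5 and compared with DESeq2 1.20.0 on hg38. The aligner and the annotation are not given in the sources used here. The base mean is a deposited signal, the mean normalised count per gene. The log2 fold changes and SEs are the authors' values as deposited, and whether they were shrunken was not stated. The deposited score, a Wald statistic, equalled their ratio to within 1.85e-13. Benjamini-Hochberg adjustment of the deposited p-value over a table's genes gave back the authors' adjusted values to within 1.5e-15. These were used unchanged, with a call at under 0.05.

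Directions were settled from RFX7, CDKN1A and MDM2 and from the agreement of the 4 tables (19344 genes, SD of the gap 0.00291 on the log2 scale). A group mean was computed as the value that, with the fold change, averages to the base mean. Tables were normalised separately, so counts were compared within a table only. Intervals are 95% normal intervals from the SE. The difference of the responses took its SE from the summed squared SEs of the Nutlin-3a tables. The accuracy of those SEs was not tested. Python 3.11.15, pandas 2.3.3, SciPy 1.17.1 and matplotlib 3.10.9 were used.

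All 10 members are named. Of the other pathway genes, up to 3 highest and 3 lowest called per comparison are named, and DGCR8, DDX5 and DDX17 without values. The members and lists were chosen with earlier results of these data known. Values of single libraries were not analysed here.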

Additional observations from a re-analysis of the deposited data

How the results depend on the processing

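No paired analysis was possible because the tables hold no value of a single library. For the same reason leaving out replicates, TMM scaling and a filter on low counts were not run. Of 210 member values recomputed under the alternatives (stricter threshold, size limit, base mean of at least 100, recentring and, for the difference, a robust SD or the siRFX7 tables), 200 kept their direction and side of the threshold, 9 lost the call, 1 gained it and 0 reversed. The 9 were AGO2, DROSHA and TNRC6A in siControl, DICER1 in siRFX7, AGO2 under DMSO and TNRC6A under Nutlin-3a with a log2 size of at least 0.25, DICER1 in siRFX7 and TNRC6A under Nutlin-3a at an adjusted p under 0.01, and TNRC6A under Nutlin-3a after recentring (adjusted p 0.0860). AGO1 passed in siControl (adjusted p 0.0415) when adjustment was over genes at a base mean of 100 or more only. Calls of AGO4, XPO5 and TNRC6C held under every alternative run. The stricter threshold, size limit, base mean limit and robust SD leave the log2 fold change as it is, so no direction could reverse there. A stricter threshold or a size limit can only remove calls. The siRFX7 tables come from the same libraries. Much of the count of unchanged values was therefore fixed in advance.

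A log2 size of at least 0.25 left 2 members lower with Nutlin-3a in siControl, instead of 5. It left 23 of the other pathway genes lower in siControl and 20 lower and 2 higher in siRFX7. With siRFX7 it left 4 higher and 5 lower under DMSO, and 5 higher and 6 lower under Nutlin-3a. Recentring on the median of genes at a base mean of 100 or more gave 7 instead of 4 higher with Nutlin-3a in siRFX7. Depth was known only as base means, of 266 to 9127 for the members.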

Other observations

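Transcripts that host microRNAs were looked at after the results above had been seen, by a rule on names only: symbols of the form MIR...HG with a base mean of at least 100 for Nutlin-3a in siControl. Of 7 such genes, 4 rose with Nutlin-3a and 0 fell in both siControl and siRFX7, where DROSHA, XPO5 and DICER1 fell. Of all genes with such a base mean, 24.7% rose and 31.6% fell in siControl, and 24.8% and 31.5% in siRFX7. MIR34AHG, host of the p53-induced miR-34a, rose by 1.68 ± 0.12 (SE) and 1.78 ± 0.11, by the authors' deposited tables, MIR222HG by 0.72 ± 0.08 and 0.64 ± 0.09, MIR100HG by 0.64 ± 0.06 and 0.42 ± 0.05, and MIR22HG by 0.58 ± 0.08 and 0.56 ± 0.09. MIR4697HG, MIR4458HG and MIR4453HG were not called with Nutlin-3a in either table. With siRFX7, 2 of the 7 were higher and 2 lower under DMSO, and 1 was higher and 1 lower under Nutlin-3a, beside 27.1% and 22.6%, and 24.6% and 20.6%, of all such genes. Poly(A) RNA shows the host transcript, not the mature microRNA, whose level was not measured.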
